A study of Saccharomyces cerevisiae with 12 samples.

Results

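Aminoacyl-tRNA synthetases attach each amino acid to its tRNA, and the chromatin of their promoters was followed here in budding yeast, Saccharomyces cerevisiae, after loss of nuclear Abf1. The members were 32 nuclear genes taken by name, 19 for enzymes that act in the cytosol and 13 for enzymes that act only in mitochondria, of 6002 nuclear protein-coding genes. All 32 had enough CpG sites for the test, as did 5846 genes in all. The readout was ODM-seq, in which the methyltransferase M.SssI marks accessible CpG sites of crosslinked chromatin with 5-methylcytosine and Nanopore sequencing reads the marks, so a high methylation level means accessible DNA, averaged over a culture. All strains came from 1 clone, A9, of the BY4741 strain ABF1-aa-V5, in which rapamycin pulls the chromosomally encoded, tagged Abf1 out of the nucleus, and all were treated with rapamycin at 8 µg/mL for 75 min. They differed in a pRS315 plasmid. The libraries labelled EM shuffle were from cells given a plasmid for Abf1 with a shuffled essential motif, the no Abf1 cells had the empty plasmid, and the WT Abf1 cells had a plasmid for wild-type Abf1. In the paper the EM shuffle construct was inviable as the only Abf1. Its variants were built without IDR1, a disordered region of Abf1, so this construct and WT Abf1 differ in more than the motif. There were 2 biological replicates for each plasmid, and chromatin of each was sampled after 3 h and 4 h with M.SssI, which made 12 libraries.

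Cytosolic synthetases charge the tRNAs used by the ribosomes that translate nuclear mRNAs, and the mitochondrial enzymes charge those of the organelle's own ribosomes. Several yeast genes (ALA1, GRS1, HTS1 and VAS1 among the members) encode both forms from a single locus. Abf1 is a general regulatory factor, an abundant and essential DNA-binding protein that helps to keep a nucleosome-free region (NFR) open and to place the nucleosomes next to it. It binds a bipartite consensus of a short left part, a spacer and a right part that ends in a CpG, so M.SssI can report on the binding site itself as well as on the DNA around it.

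Matches to this consensus were searched on both strands in non-coding DNA whose distance from a start codon was 50 to 500 bp on the upstream side, measured to the match centre. Of the 19 cytosolic genes, 10 had such a match (52.6%), against 0 of 13 mitochondrial genes and 1007 of all 6002 genes (16.8%). The 10 matches are given below with 25 bases on either side, because several results are given by whether a gene has one. They are read from the R64 reference on the strand of the match, in capitals where they fit the consensus.
GRS1 (chrII:483612-483674, minus strand, match centre 276 bp upstream of the start codon): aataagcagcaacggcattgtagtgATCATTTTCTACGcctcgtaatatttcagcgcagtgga
TYS1 (chrVII:867620-867682, minus strand, match centre 131 bp upstream of the start codon): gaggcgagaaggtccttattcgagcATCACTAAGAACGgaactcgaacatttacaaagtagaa
MES1 (chrVII:1022006-1022068, minus strand, match centre 184 bp upstream of the start codon): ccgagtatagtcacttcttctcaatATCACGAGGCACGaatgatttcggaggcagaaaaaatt
DED81 (chrVIII:143693-143755, plus strand, match centre 166 bp upstream of the start codon): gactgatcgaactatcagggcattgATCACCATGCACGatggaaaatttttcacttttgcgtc
THS1 (chrIX:212296-212358, plus strand, match centre 172 bp upstream of the start codon): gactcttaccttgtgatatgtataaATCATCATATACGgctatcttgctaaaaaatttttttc
DPS1 (chrXII:111711-111773, minus strand, match centre 167 bp upstream of the start codon): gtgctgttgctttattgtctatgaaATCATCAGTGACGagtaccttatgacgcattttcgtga
FRS1 (chrXII:260789-260851, plus strand, match centre 159 bp upstream of the start codon): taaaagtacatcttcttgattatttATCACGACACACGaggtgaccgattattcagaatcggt
GLN4 (chrXV:649134-649196, plus strand, match centre 138 bp upstream of the start codon): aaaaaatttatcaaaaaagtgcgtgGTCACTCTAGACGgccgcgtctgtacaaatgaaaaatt
ALA1 (chrXV:949339-949401, minus strand, match centre 261 bp upstream of the start codon): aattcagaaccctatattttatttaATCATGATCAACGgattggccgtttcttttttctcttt
HTS1 (chrXVI:639152-639214, plus strand, match centre 164 bp upstream of the start codon): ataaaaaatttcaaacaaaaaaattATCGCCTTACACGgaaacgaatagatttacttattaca
A match is a description of letters and need not be bound. The sequences of TYS1, DED81, THS1, FRS1, GLN4, ALA1 and HTS1 also lie upstream of a divergent neighbour (TFG1, YHR020W, AIR1, REX2, RPS28A, KRE5 and ARP7, in this order). Promoter windows were 200 bp long and ended 51 bp before the start codon, so that they began at 250 bp. In no Abf1 against WT Abf1, MES1 had the largest loss of methylation in this window among the members, and GLN4 was the only one called higher in it. Both windows are shown on the strand of the gene with each CpG in capitals.
MES1 (chrVII:1021904-1022103, minus strand): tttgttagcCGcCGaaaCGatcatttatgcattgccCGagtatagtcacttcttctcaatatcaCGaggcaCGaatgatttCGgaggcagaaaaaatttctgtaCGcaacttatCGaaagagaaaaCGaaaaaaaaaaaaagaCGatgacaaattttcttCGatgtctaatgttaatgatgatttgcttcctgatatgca
GLN4 (chrXV:649053-649252, plus strand): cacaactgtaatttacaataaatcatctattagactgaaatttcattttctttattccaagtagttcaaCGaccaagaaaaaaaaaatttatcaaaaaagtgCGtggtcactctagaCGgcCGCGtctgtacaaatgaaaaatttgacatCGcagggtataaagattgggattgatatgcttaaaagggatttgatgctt

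The libraries held 13253872 to 37756743 calls on nuclear chromosomes, with a median of 32 to 94 calls per CpG site. Promoter windows of the members held 2 to 13 CpG sites and 164 to 2264 calls per replicate. Levels are corrected methylation, that is, the percentage of methylated calls divided by the authors' factor for the construct (0.871 for the libraries labelled EM shuffle, 1.04 for no Abf1 and 1 for WT Abf1), so that corrected values can exceed 100%. Read coverage over ABF1 relative to its surroundings was 0.901 to 1.10 in the libraries labelled EM shuffle and 0.821 to 1.06 in no Abf1, against 1.78 to 1.92 in WT Abf1, where the plasmid adds a copy. Such a rise was not seen under the EM shuffle label, which is used here only as a label. These libraries also carried 1.16 to 2.02 times the usual coverage of chromosome XI. MST1 is the only member there, but the chromosomal, tagged ABF1 lies on it too. ABF1 and its surroundings therefore rise together, and a plasmid copy would raise the ratio less than in WT Abf1. Whether these cells held the plasmid was not tested. They were of another batch than those of no Abf1 and WT Abf1, so construct and batch cannot be told apart for them.

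Member promoters spanned a wide range of accessibility. In WT Abf1 cells KRS1, for lysine, was the most methylated member at 85.6% ± 1.04 (SD, n = 2), followed by ILS1 (isoleucine) at 77.8% ± 1.95, VAS1 (valine) at 77.5% ± 5.82 and MSK1, the mitochondrial lysine enzyme, at 76.6% ± 1.36. ILS1, VAS1 and MSK1 did not differ beyond their spread. The lowest levels were those of GRS2, a paralog of GRS1, at 36.7% ± 1.37 and of MSY1, the mitochondrial tyrosine enzyme, at 36.2% ± 4.72. These lowest members, again within their spread of each other, stood at the 26.9th and 26.4th percentile of all promoter windows, and KRS1 at the 99.7th. The MSY1 window rests on 2 CpG sites.

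Averaged over the promoter window, cytosolic genes were more methylated than mitochondrial ones in each construct. The mean over the 19 cytosolic windows was 66.3% ± 0.427 in the libraries labelled EM shuffle, 56.9% ± 0.398 in no Abf1 and 60.5% ± 1.22 in WT Abf1 (SD, n = 2). Over the 13 mitochondrial windows it was 59.6% ± 0.218, 52.6% ± 0.423 and 54.6% ± 2.13, and over all 5846 windows 53.2% ± 0.218, 48.4% ± 0.425 and 49.7% ± 1.44, for the same constructs. The difference between the classes was 6.74 ± 0.209 percentage points in the libraries labelled EM shuffle, 4.32 ± 0.821 in no Abf1 and 5.88 ± 0.911 in WT Abf1. Division by the factor raised the value for the EM shuffle label. Medians over the cytosolic and mitochondrial genes were 67.9% and 60.9% under that label, 54.1% and 52.2% in no Abf1, and 59.3% and 52.8% in WT Abf1. The difference of the means was positive in all 6 replicates, and no test over members was made. The order varied along the window. In the 50-bp bin centred on -125 bp from the start codon, mitochondrial genes had 73.9% in WT Abf1. Cytosolic genes with and without a match had 64.8% and 71.6% there. In the bin centred on -225 bp the values were 18.4%, 49.3% and 40.4%, in the same order of classes. Farther upstream the order of the means was the other way round, since over 250 and up to 500 bp upstream the cytosolic mean in WT Abf1 was 27.9% ± 2.51 and the mitochondrial mean 35.1% ± 2.44. Levels after 4 h exceeded those after 3 h in all 6 preparations, by 1.90 ± 0.728 percentage points of uncorrected methylation on average over the members. By preparation, 18 to 23 of the 32 members were higher after 4 h. The genome average rose as well in each preparation, for instance from 28.6% to 30.2% in WT Abf1 replicate 1.

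**Figure D1:**
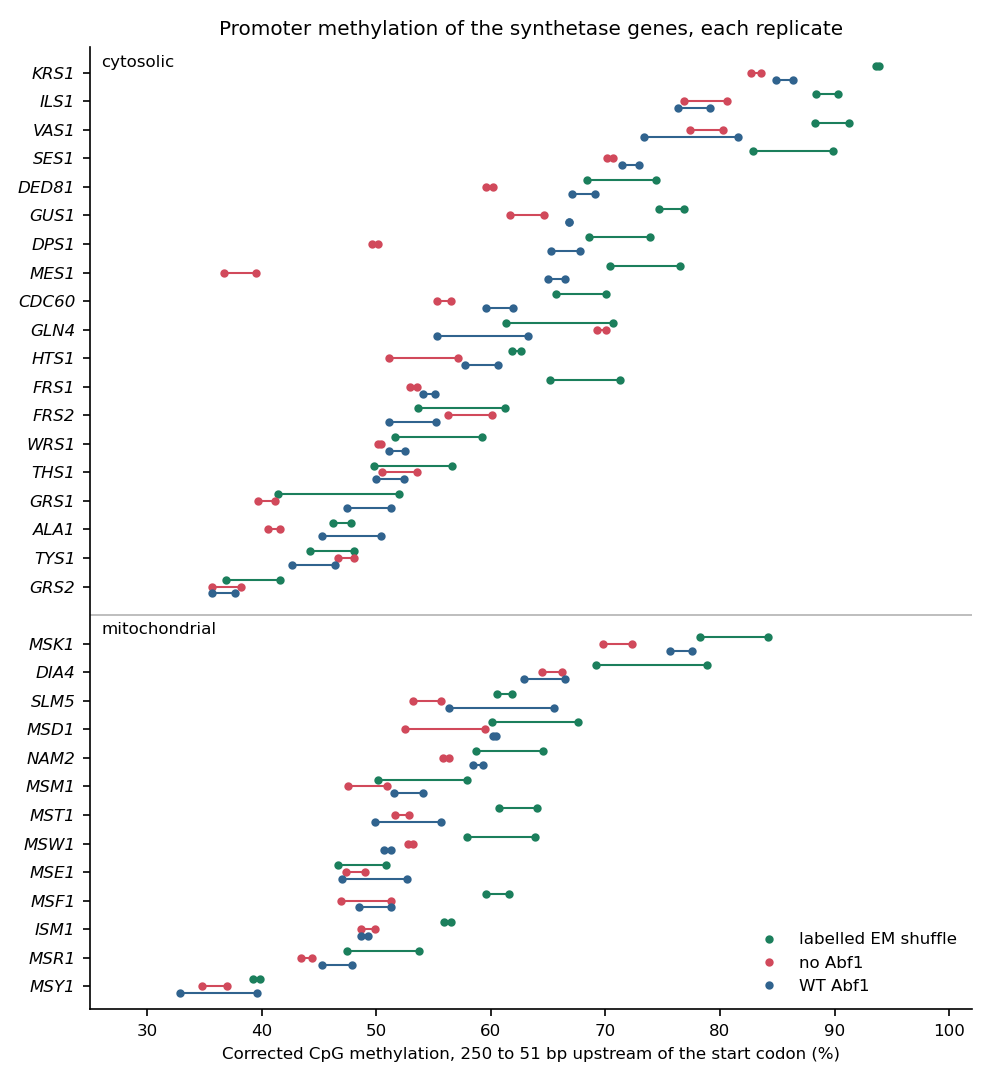
Corrected CpG methylation in percent (x axis) of the promoter window of each of the 32 synthetase genes (rows, cytosolic above the line, mitochondrial below it, ordered by the WT Abf1 mean). Points are the 2 replicates of a construct and lines join them; for MES1 both no Abf1 replicates (36.7% and 39.5%) lie far left of the other constructs.

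Loss of Abf1 was examined first, by comparing no Abf1 with WT Abf1 cells, which were of the same batch. Promoter methylation fell at MES1, DPS1, DED81, GRS1 and ALA1 and rose at GLN4, which was 6 of 32 members at an adjusted p below 0.05, against 11.6% of all windows (7.51% lower and 4.11% higher). Without setting the genome averages equal, 684 windows were called in all, 357 higher and 327 lower, in place of 679 with 240 higher and 439 lower, and GRS1 (-0.42, adjusted p = 0.0625) and ALA1 (-0.29, adjusted p = 0.0848) were no longer called. All 6 members called with the averages set equal were cytosolic genes with an Abf1 match. None of the 13 mitochondrial windows passed the test, with none at an unadjusted p under 0.05 either. Among these, the log2 odds ratios ran from -0.28 at SLM5 (asparagine) to 0.16 at MSW1 (tryptophan), with MSE1 (glutamate), MSR1 (arginine), MSM1 (methionine), MSD1 (aspartate), ISM1 (isoleucine), MST1 (threonine), DIA4 (serine) and NAM2 (leucine) between them. None of the 9 cytosolic genes without a match passed it, their log2 odds ratios running from -0.23 at CDC60 to 0.37 at FRS2, the alpha subunit of the phenylalanine enzyme, with WRS1 (tryptophan) at -0.05. In a window of 300 to 1 bp upstream, however, CDC60 was called without having a match (-0.57, adjusted p = 3.62e-04). Over all members the median log2 odds ratio was -0.04, beside -0.00 over all windows, and the members ranged from -1.63 to 0.81. Among all genes, 39.6% of the 999 tested that had a match and 5.84% of the 4847 that had none were called. The test was a quasi-binomial model of methylated and unmethylated calls per window with limma-moderated dispersion, Benjamini-Hochberg adjusted over all windows. Its log2 odds ratio (given with its SE) is the change beyond the difference between the constructs' genome averages. An exact permutation test of 2 against 2 replicates cannot go below 0.333.

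MES1, the cytosolic methionine enzyme and a partner of the tRNA-binding cofactor Arc1, had the largest change of the members. Its window was methylated to 36.7% and 39.5% in the no Abf1 replicates, against 65.0% and 66.4% in WT Abf1. No library of either construct overlapped the other, and the log2 odds ratio was -1.63 ± 0.11 (adjusted p = 1.88e-10). DPS1, for aspartate, came next, with 49.6% and 50.2% in no Abf1 against 67.8% and 65.2% in WT Abf1. The libraries were again apart, with a log2 odds ratio of -0.96 ± 0.14 (adjusted p = 2.74e-05).

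The other decreases were smaller, and their libraries did not overlap between constructs either in corrected terms. At ALA1 the margin was narrow, with the highest no Abf1 library at 43.7% and the lowest WT Abf1 library at 44.0%. The no Abf1 values are lowered by the factor of 1.04. DED81, for asparagine, had 59.5% and 60.2% in no Abf1 against 69.1% and 67.1% in WT Abf1, a log2 odds ratio of -0.44 ± 0.10 (adjusted p = 0.00437). GRS1, for glycine, had 41.1% and 39.7% in no Abf1 against 51.3% and 47.4% in WT Abf1 (-0.50 ± 0.14, adjusted p = 0.0212). ALA1, for alanine, had 40.6% and 41.6% in no Abf1 against 50.4% and 45.2% in WT Abf1 (-0.38 ± 0.11, adjusted p = 0.0198). The matches of GRS1 and ALA1 lie 276 and 261 bp upstream, just outside the window, and the other matches of called genes lie inside it.

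GLN4, for glutamine, changed in the other direction. Its window had 70.0% and 69.3% in no Abf1 against 63.2% and 55.3% in WT Abf1, with no overlap between libraries and a log2 odds ratio of 0.81 ± 0.16 (adjusted p = 0.0012). Of the 6 CpG sites in this window, shown in capitals in the sequence above, several lie in or next to the match. The site inside it, 5.5 bp from its centre, had 59.9% in no Abf1 against 31.9% in WT Abf1. The sites at -9.5 and 9.5 bp had 60.6% and 67.6% in no Abf1 against 36.7% and 48.8% in WT Abf1. Those at -42.5, 11.5 and 38.5 bp were not higher, with 86.2%, 67.2% and 73.7% in no Abf1 against 88.8%, 70.7% and 77.2% in WT Abf1. RPS28A, a ribosomal protein gene that is transcribed away from GLN4, shares 195 bp of the window and had the same log2 odds ratio, since both windows hold the same sites. Calls of single genes depended on single replicates: without WT Abf1 replicate 1 the adjusted p was 0.0755 for DED81, 0.242 for GRS1 and 0.328 for ALA1; without no Abf1 replicate 1 it was 0.0512, 0.0763 and 0.147 for the same genes; without no Abf1 replicate 2 it was 0.133 for GRS1 and 0.062 for ALA1; and without WT Abf1 replicate 2 it was 0.121 for GLN4. MES1 and DPS1 kept their calls under each of the 17 alternatives, while a window of 300 to 1 bp upstream ended those of GRS1 (-0.03, adjusted p = 0.946) and GLN4 (0.19, adjusted p = 0.477) and added TYS1 (0.45, adjusted p = 0.00289) and CDC60.

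**Figure D2:**
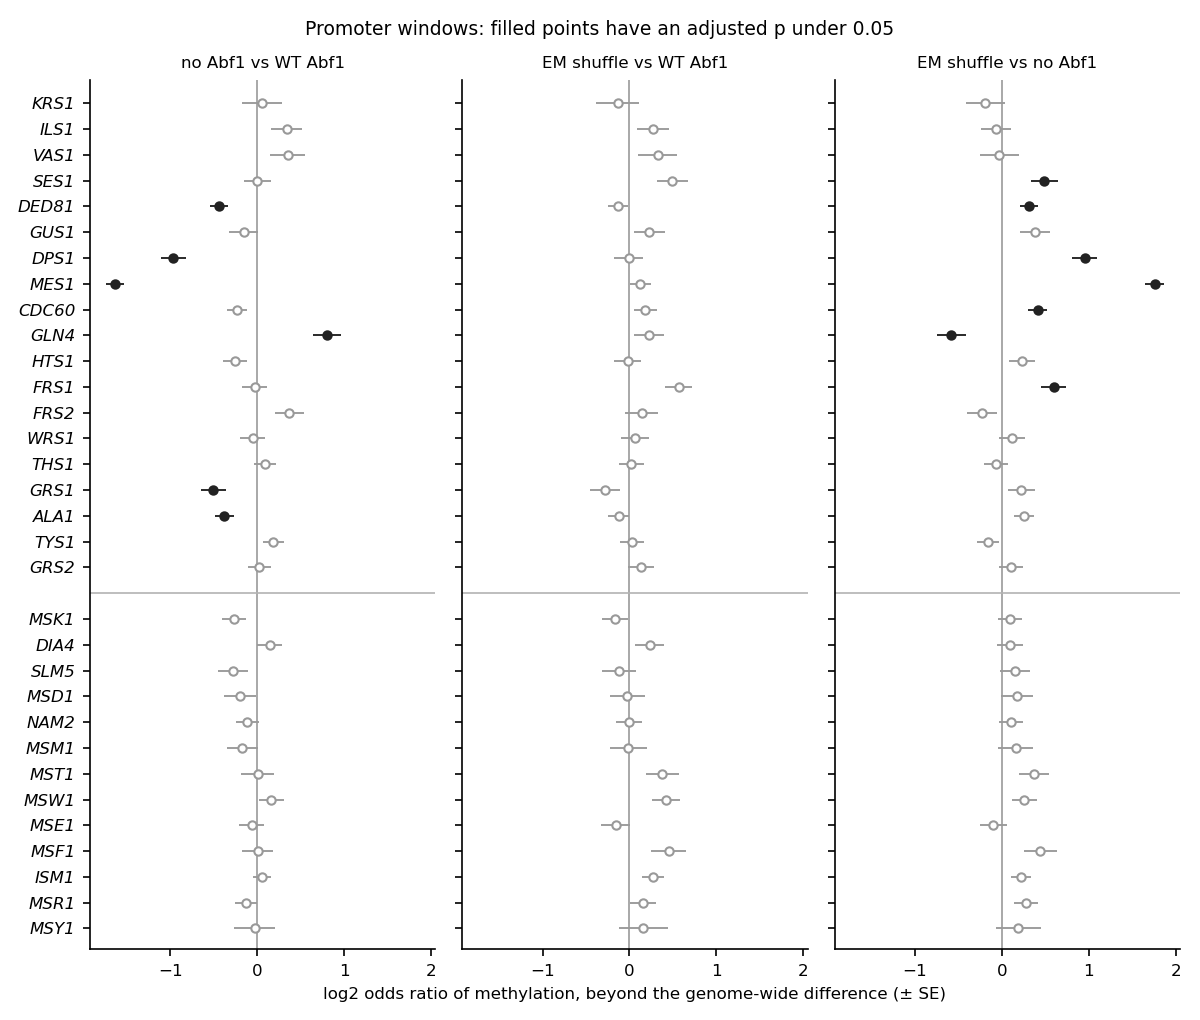
Log2 odds ratio of promoter methylation with its SE (x axis) for each member (rows) in the 3 comparisons (panels); filled points have an adjusted p under 0.05. MES1 lies at -1.63 in no Abf1 against WT Abf1 and at 1.76 in the libraries labelled EM shuffle against no Abf1, and no point is filled below the line that sets off the mitochondrial genes.

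Single CpG sites showed where methylation was lost. At MES1 the 6 sites from 15.5 to 94.5 bp downstream of the match centre, towards the gene, had 19.8% to 44.3% in no Abf1 cells, against 62.0% to 76.0% in WT Abf1. On the other side the differences were smaller, with 56.3% ± 1.52 in no Abf1 against 77.6% ± 6.605 in WT Abf1 at -29.5 bp and 68.8% ± 1.71 in no Abf1 against 79.8% ± 5.51 in WT Abf1 at -48.5 bp. Inside the match the pair of sites had 24.5% ± 2.83 and 26.3% ± 4.36 in no Abf1, against 36.2% ± 1.26 and 33.5% ± 2.67 in WT Abf1, where they were already low. At TYS1 (tyrosine) the picture differed. Its site inside the match had 77.6% ± 2.57 in no Abf1 against 35.1% ± 2.90 in WT Abf1, and the next site, at -10.5 bp, had 76.7% ± 2.01 in no Abf1 against 57.4% ± 6.06 in WT Abf1. At 12.5 bp the values overlapped within their spread, with 80.7% ± 2.80 in no Abf1 against 83.5% ± 4.77 in WT Abf1. Lower values were found at -26.5 bp, 65.4% ± 1.66 in no Abf1 against 82.1% ± 7.09 in WT Abf1, and at -75.5 bp, 17.5% ± 1.66 in no Abf1 against 45.8% ± 10.02 in WT Abf1. Farther out, at -155.5 bp, the order was again the other way, with 34.9% ± 1.61 in no Abf1 against 9.72% ± 0.887 in WT Abf1. The promoter window of TYS1 as a whole did not pass the test (0.19 ± 0.12, adjusted p = 0.433), although the window of 300 to 1 bp did.

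**Figure D3:**
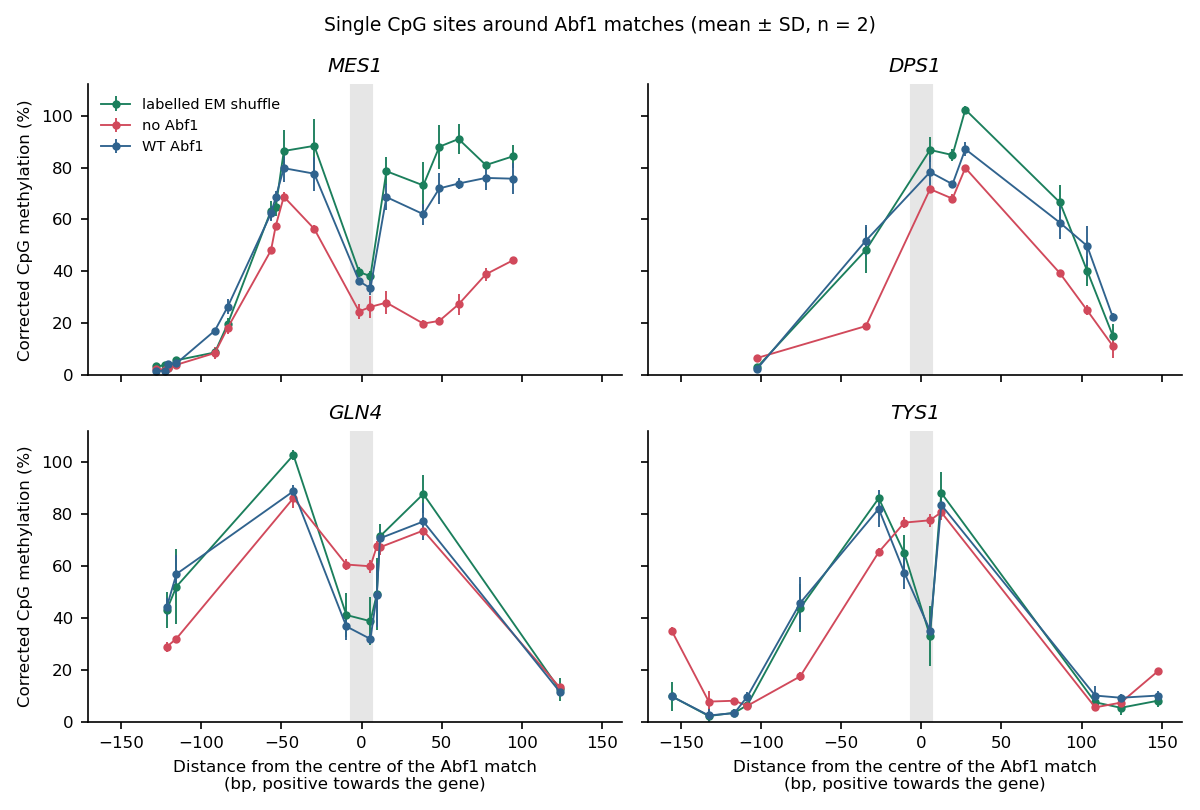
Corrected methylation in percent (y axis) of single CpG sites by distance in bp from the centre of the Abf1 match (x axis, positive towards the gene) at MES1, DPS1, GLN4 and TYS1; points are means of 2 replicates, bars are SD, and the grey band is the match. At GLN4 and TYS1 the site in the band is higher in no Abf1 (59.9% and 77.6%) than in WT Abf1 (31.9% and 35.1%), and at MES1 the sites to its right fall to between 19.8% and 44.3% in no Abf1.

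All 10 matches were then taken in 2 parts, the flanks 10 to 75 bp on either side of the centre and the single CpG that ends the consensus. In no Abf1 against WT Abf1, 8 of 10 member flanks were called, 7 lower and 1 higher, beside 64% of the 753 flanks tested genome-wide. The flanks that fell were those of MES1 (log2 odds ratio -1.82 ± 0.14), DPS1 (-0.96 ± 0.22), ALA1 (-0.77 ± 0.20), GRS1 (-0.76 ± 0.15), HTS1 (histidine, -0.63 ± 0.25), DED81 (-0.44 ± 0.17) and TYS1 (-0.41 ± 0.18), and that of GLN4 rose (0.45 ± 0.20). Of the 4 flank sites of GLN4, only that at -9.5 bp, beside the match, was higher in no Abf1 (60.6% ± 2.27 against 36.7% ± 5.18 in WT Abf1). THS1 (threonine, -0.19 ± 0.17) and FRS1 (beta subunit of the phenylalanine enzyme, -0.39 ± 0.30) did not pass. The median over the member flanks was -0.53, beside -0.63 over all flanks. The share of member flanks called was near that of all matches, and without WT Abf1 replicate 1, no Abf1 replicate 1 or no Abf1 replicate 2 it was 5 of 10. The calls of MES1, DPS1 and GRS1 held without any single replicate, while without WT Abf1 replicate 1 the adjusted p was 0.253 for DED81, 0.0732 for ALA1 and 0.208 for HTS1, and without WT Abf1 replicate 2 it was 0.503 for TYS1 and 0.473 for GLN4.

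The CpG at the end of the match, examined after the values had been seen, rose at 6 of 10 members, beside 65.3% of the 829 such sites called genome-wide, of which 492 rose and 49 fell. The largest increase among the members was that of TYS1 (log2 odds ratio 2.85 ± 0.29, adjusted p = 1.42e-05). THS1 had 55.5% and 49.7% in no Abf1 against 25.6% and 23.8% in WT Abf1 (1.79 ± 0.24, adjusted p = 3.8e-05), although its flanks and its promoter window did not pass. GLN4 had 61.6% and 58.2% in no Abf1 against 33.3% and 30.4% in WT Abf1 (1.75 ± 0.27, adjusted p = 9.67e-05). GRS1 (1.21 ± 0.24), DED81 (1.06 ± 0.27) and FRS1 (0.59 ± 0.24) also rose. A called lower flank together with a called higher end CpG was found at GRS1, TYS1 and DED81. GLN4 rose in both, in its flanks only at the site at -9.5 bp, beside the match. MES1 (-0.50 ± 0.26), DPS1 (-0.34 ± 0.30), ALA1 (-0.17 ± 0.25) and HTS1 (0.48 ± 0.27) did not pass, and at DPS1 and ALA1 the site was already methylated to 78.2% ± 6.24 and 75.2% ± 0.610 in WT Abf1. With the sites inside matches left out, HTS1 joined the called promoter windows (-0.76, adjusted p = 0.0019), so that 7 members were called. GLN4 stayed among them, but its sites at -9.5 and 9.5 bp, just outside the match, remained in this fit. The fit therefore cannot show whether GLN4 gained methylation away from the match. In the libraries labelled EM shuffle against no Abf1 the call of GLN4 was then lost (-0.46, adjusted p = 0.102).

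**Figure D4:**
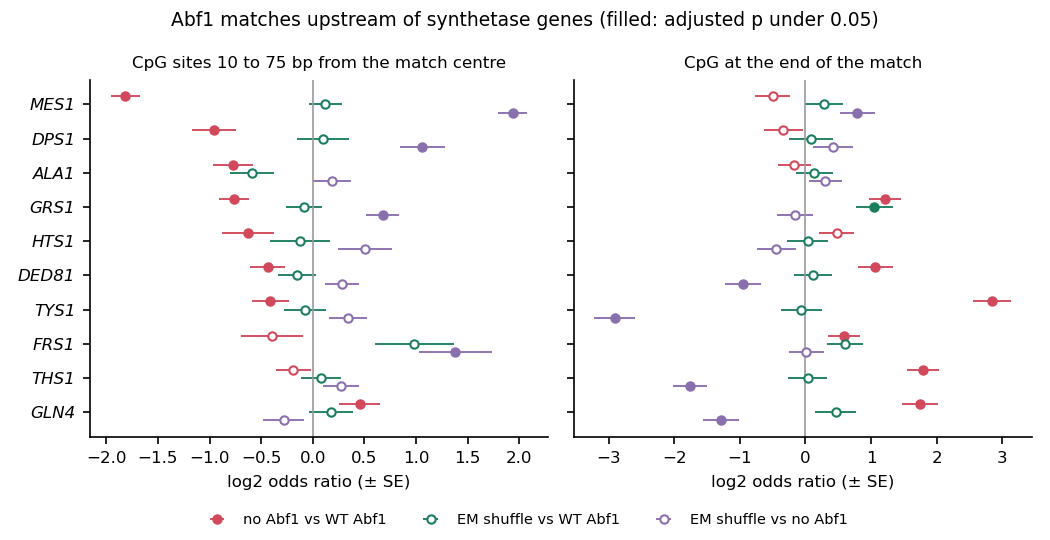
Log2 odds ratio with its SE (x axis) for the flanks (left panel) and for the CpG at the end of the match (right panel) of the 10 matches (rows), in 3 comparisons by colour; filled points have an adjusted p under 0.05. In no Abf1 against WT Abf1 the flank of TYS1 lies at -0.41 and its end CpG at 2.85.

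Changes further from the promoter window were few. Over 250 and up to 500 bp upstream, 2 of 32 members were called in no Abf1 against WT Abf1, beside 8.73% of the 5942 windows, and both rose. TYS1 had 33.7% and 35.9% in no Abf1 against 24.7% and 21.3% in WT Abf1 (log2 odds ratio 0.84 ± 0.14, adjusted p = 3.46e-05). DPS1, which lost methylation closer to the gene, had 29.7% and 31.2% in no Abf1 against 21.1% and 17.3% in WT Abf1 (0.88 ± 0.20, adjusted p = 0.00217, but 0.0644 without WT Abf1 replicate 2). From 50 bp upstream to 150 bp downstream of the start codon only GRS1 was called, 1 of 32 beside 4.37% of the 5876 windows. It had 39.1% and 40.7% in no Abf1 against 30.5% and 29.0% in WT Abf1 (0.66 ± 0.17, adjusted p = 0.0142), a call lost without no Abf1 replicate 1 (adjusted p = 0.0554), no Abf1 replicate 2 (0.132) or WT Abf1 replicate 2 (0.119). With all replicates and both aliquots, GRS1 was thus called lower in its promoter window and higher over its start. Its promoter call was lost under 8 of 17 alternatives, so neither call was stable.

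The libraries labelled EM shuffle were compared with the same no Abf1 libraries, which both comparisons share. Methylation was higher at MES1, DPS1, FRS1, SES1, CDC60 and DED81 and lower at GLN4, 7 of 32 members beside 11.5% of all windows (8.33% higher and 3.15% lower). All 7 were cytosolic, and 2 of the 13 mitochondrial windows had an unadjusted p under 0.05. The median log2 odds ratio of the members was 0.18, beside 0.07 over all windows. MES1 had 70.4% and 76.5% in the libraries labelled EM shuffle against 36.7% and 39.5% in no Abf1 (1.76 ± 0.11, adjusted p = 1.05e-10). DPS1 had 68.6% and 73.9% under the EM shuffle label against 49.6% and 50.2% in no Abf1 (0.95 ± 0.14, adjusted p = 3.91e-05). Both genes were therefore as accessible as in WT Abf1 or more so in corrected terms, which the factor raises. Uncorrected, MES1 had 64.0% under the EM shuffle label against 65.7% in WT Abf1, and DPS1 62.1% against 66.5%. Their log2 odds ratios against WT Abf1 were 0.13 ± 0.12 and -0.01 ± 0.16, and neither was called. The EM shuffle libraries of both genes lay apart from those of no Abf1.

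The other calls were weaker. FRS1 had 71.2% and 65.2% in the libraries labelled EM shuffle against 53.6% and 52.9% in no Abf1 (0.59 ± 0.15, adjusted p = 0.00787). SES1, for serine, had 82.9% and 89.9% under the EM shuffle label against 70.1% and 70.7% in no Abf1 (0.49 ± 0.16, adjusted p = 0.0474). CDC60, for leucine, had 70.0% and 65.7% under the EM shuffle label against 56.5% and 55.3% in no Abf1 (0.41 ± 0.11, adjusted p = 0.0142). SES1 and CDC60 have no Abf1 match among the sequences searched. DED81 had 68.4% and 74.4% under the EM shuffle label against 59.5% and 60.2% in no Abf1 (0.31 ± 0.10, adjusted p = 0.0483), and its log2 odds ratio was -0.048 when the genome averages were not set equal. GLN4 had 70.6% and 61.3% under the EM shuffle label against 70.0% and 69.3% in no Abf1, and the libraries overlapped (-0.58 ± 0.17, adjusted p = 0.022). Without setting the genome averages equal, that is, without the offsets of -0.28 for the libraries labelled EM shuffle and 0.09 for no Abf1 on the log2 odds scale, 2060 windows were called, 174 higher and 1886 lower, in place of 671 with 487 higher and 184 lower. Then 7 members were again called but 5 of them lower, and those kept from the list above were MES1 (1.40), DPS1 (0.59) and GLN4 (-0.94). In the window of 300 to 1 bp upstream SES1 (0.34, adjusted p = 0.0947) and GLN4 (-0.08, adjusted p = 0.76) were lost and TYS1 was added (-0.39, adjusted p = 0.0156). Leaving out replicates ended further calls: without EM shuffle replicate 1 those of CDC60 (adjusted p = 0.279) and FRS1 (0.211), without EM shuffle replicate 2 those of DED81 (0.482), SES1 (0.549) and GLN4 (0.384), without no Abf1 replicate 1 those of DED81 (0.22), SES1 (0.213) and GLN4 (0.159), without no Abf1 replicate 2 those of CDC60 (0.106), DED81 (0.12), FRS1 (0.0553), SES1 (0.113) and GLN4 (0.0765), and without either WT Abf1 replicate, which enter through the shared dispersion, those of DED81 (0.0517) and SES1 (0.0512).

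Around the matches, 4 of 10 member flanks were called against no Abf1, all higher, beside 64.4% of all flanks. They were those of MES1 (1.94 ± 0.14), FRS1 (1.38 ± 0.35, adjusted p = 0.00106, but 0.0603 without EM shuffle replicate 1), DPS1 (1.06 ± 0.22) and GRS1 (0.68 ± 0.16, not called at 0.32 when the genome averages were not set equal). The end CpG of the match was called at 5 of 10 members, beside 55.5% of all such sites. It was lower at TYS1 (-2.91 ± 0.31), THS1 (-1.76 ± 0.26), GLN4 (-1.29 ± 0.28) and DED81 (-0.95 ± 0.27) and higher at MES1 (0.79 ± 0.27). In the upstream windows 3 of 32 members were called, beside 8.33% of all. DPS1 had 17.4% and 19.0% in the libraries labelled EM shuffle against 29.7% and 31.2% in no Abf1 (-0.93 ± 0.21, adjusted p = 0.0032), and without EM shuffle replicate 1 the adjusted p was 0.0722. TYS1 had 27.0% and 21.4% under the EM shuffle label against 33.7% and 35.9% in no Abf1 (-0.69 ± 0.15, adjusted p = 0.00174), and without EM shuffle replicate 2 the adjusted p was 0.114. CDC60 had 35.3% and 27.5% under the EM shuffle label against 22.7% and 25.4% in no Abf1 (0.55 ± 0.16, adjusted p = 0.0261), and the call was lost without EM shuffle replicate 1 (adjusted p = 0.67) or no Abf1 replicate 1 (0.17). Over the start codon 0 of 32 members were called, beside 3.17% of all windows, with 2 at an unadjusted p under 0.05.

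When the EM shuffle label was set against WT Abf1, 0 of 32 promoter windows passed the test, beside 1.11% of all windows, and 5 had an unadjusted p under 0.05. With limma on log2 odds the count was also 0, and without setting the genome averages equal it was 3 (GRS1, DED81 and ALA1, all lower). The largest differences were those of FRS1, SES1 and MSF1, the mitochondrial phenylalanine enzyme. FRS1 had 71.2% and 65.2% under the EM shuffle label against 55.2% and 54.1% in WT Abf1 (0.57 ± 0.16, adjusted p = 0.0876). SES1 had 82.9% and 89.9% under the EM shuffle label against 72.9% and 71.5% in WT Abf1 (0.49 ± 0.18, adjusted p = 0.196). MSF1 had 61.5% and 59.6% under the EM shuffle label against 51.2% and 48.5% in WT Abf1 (0.45 ± 0.20, adjusted p = 0.357). Their libraries did not overlap between constructs, but the corrected percentages of the libraries labelled EM shuffle were raised by the factor, and here the construct cannot be separated from its batch. The percentages and the log2 odds ratio, which were corrected on different scales, differed in sign at some members: KRS1 had 93.8% ± 0.175 under the EM shuffle label against 85.6% ± 1.04 in WT Abf1 in corrected terms, while its log2 odds ratio was -0.13 ± 0.25. Upstream windows (0 of 32 members, 1 at an unadjusted p under 0.05, beside 1.48% called of all), start windows (0 of 32, 1 at an unadjusted p under 0.05, beside 0.408%) and match flanks (0 of 10, beside 2.92%) gave no call. The end CpG of the match was called at GRS1 only, 1 of 10 beside 4.46% of all such sites, with 71.3% and 75.0% under the EM shuffle label against 54.7% and 45.1% in WT Abf1 (1.05 ± 0.28, adjusted p = 0.0498).

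Averaged along the genes, methylation peaked within the promoter window in all classes. In each class the corrected mean at the peak had a smaller value in no Abf1 than in WT Abf1. The factor of 1.04 lowers the no Abf1 values, and for cytosolic genes without a match the direction rests on that division. Over all 5846 windows the corrected mean was smaller too, at 48.4% ± 0.425 in no Abf1 against 49.7% ± 1.44 in WT Abf1. Whether any class fell beyond this, or the classes differ in it, was not tested. From 150 to 101 bp upstream, the 10 cytosolic genes with a match had a mean of 69.5% in the libraries labelled EM shuffle, 56.6% in no Abf1 and 64.8% in WT Abf1, over 9 genes with a CpG in the bin. The 9 cytosolic genes without a match had 80.4%, 69.2% and 71.6% there, for the same constructs. The mitochondrial genes had 81.6%, 70.2% and 73.9%, over 11 genes with a CpG.

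**Figure D5:**
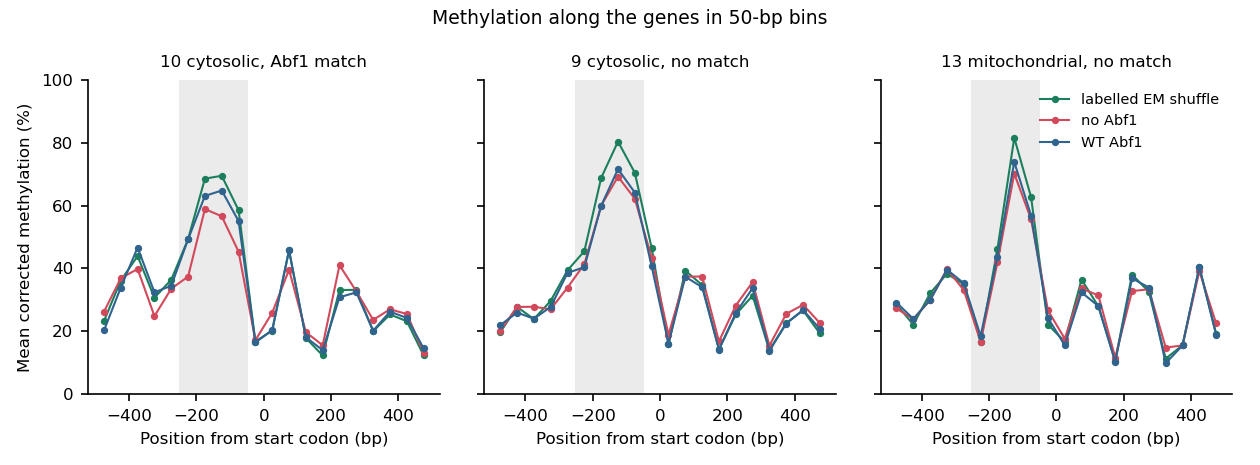
Mean corrected methylation in percent (y axis) in 50-bp bins by position in bp from the start codon (x axis) for cytosolic genes with an Abf1 match, cytosolic genes without a match and mitochondrial genes, by construct; the grey band marks the promoter window. In the bin from 150 to 101 bp upstream the genes with a match lie at 56.6% in no Abf1 and at 64.8% in WT Abf1.

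Other motifs were also counted in the promoter windows. The Gcn4 core TGACTC, the site of the activator of amino acid biosynthesis genes, was found on either strand in the promoter windows of ILS1, KRS1, THS1 and VAS1 (12.5% of members, beside 5.27% of all 6001 full-length windows). The Reb1 core TTACCCG, the site of another general regulatory factor, was found at ILS1, GUS1 and VAS1 (9.38%, beside 6.98%). The Abf1 consensus was in 8 member windows (25%, beside 11.4%), and no mitochondrial window held any of these motifs. Neither ILS1, KRS1, GUS1 nor VAS1 was called in a promoter comparison.

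Related genes outside the set were counted beside the share called over all windows, 11.6% for no Abf1 against WT Abf1 and 11.5% for the EM shuffle label against no Abf1. Of 5 further synthetase and cofactor genes, 2 fell in no Abf1 against WT Abf1 and were higher in the libraries labelled EM shuffle against no Abf1. They were ARC1 (log2 odds ratios -0.50 ± 0.13 and 0.55 ± 0.13, in this order), the cofactor of Mes1 and Gus1, and YHR020W (-0.38 ± 0.10 and 0.32 ± 0.10), a predicted proline enzyme whose promoter window shares 63 bp with that of DED81. Of 12 tested genes for cytosolic elongation and release factors 1 changed, SUP35 (release factor eRF3, -0.62 ± 0.16 and 0.71 ± 0.17). Of 13 genes for tRNA maturation and export 1 changed, LHP1 (-1.61 ± 0.13 and 1.42 ± 0.13), which encodes the yeast La protein. Of 9 tested genes for mitochondrial translation factors and the tRNA amidotransferase 1 changed, PET112 (1.23 ± 0.21 and -1.11 ± 0.22), a subunit of the amidotransferase. REX2, whose window shares 69 bp with that of FRS1, was not called (0.30 ± 0.21 in the libraries labelled EM shuffle against no Abf1, adjusted p = 0.441).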

How the data were processed

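ODM-seq was done on 6 chromatin preparations (3 constructs, 2 biological replicates each from independent clones), with a 3 h and a 4 h aliquot of each as technical replicates. The authors aligned Nanopore reads to sacCer3 (R64) with minimap2 2.17, processed them with SAMtools 1.9 and 1.15 and R 4.2.0 per the labels' processing notes, and called 5-methylcytosine. The deposited files give, per CpG position and strand, the methylated fraction (for the libraries labelled EM shuffle a ratio that can pass 1, after division by the factor), the coverage as a count of calls, and the correction factor, a ratio the authors took as the construct's genome average over that of WT Abf1. The deposited occupancy column was not used.

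Here methylated calls were recovered as the fraction times the factor times the coverage (whole numbers at 100% of positions). Both strands of a CpG and both aliquots of a preparation were added, and sites with fewer than 5 calls in any library were left out. Windows needed 2 CpG sites. Genes and windows came from the RefSeq R64 annotation. The quasi-binomial model had 0.5 pseudocounts on each side and an offset on the logit scale for each construct's genome average (log2 odds relative to WT Abf1 of -0.28 for the libraries labelled EM shuffle and 0.09 for no Abf1), with dispersion moderated across windows by limma 3.58.1 in R 4.3.3, and p-values were two-sided and Benjamini-Hochberg adjusted over all windows. It was tested on simulated data. Every member was named; full values were given for members called in a promoter comparison and, for comparisons with fewer than 3 calls, for the 3 with the largest absolute log2 odds ratio. In the upstream and start windows and the flanks, only called members were given values in full. Members, lists and tests were chosen with earlier results of these data known, and the analyses of the CpG that ends the match and of windows without match sites were added after the values were seen. Other normalisations, filters, windows and a limma test on log2 odds were tried, and each replicate was left out in turn.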

Additional observations from a re-analysis of the deposited data

Results flagged for a closer look

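Within the 4 libraries of a construct, 1 of 30 sets of promoter values of the members described in full had a library far from the rest, where chance gives about 1 in 20. At MES1 the WT Abf1 library of replicate 1 after 4 h had 62.7% corrected methylation, and the other WT Abf1 libraries had 66.4% to 66.6%. It lay well above the no Abf1 libraries, of which the highest had 44.4%.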

How the results depend on the processing

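With 2 replicates per construct, counts of calls moved with single replicates and aliquots. Leaving out each replicate in turn, promoter calls among the members ranged from 3 to 6 in no Abf1 against WT Abf1 and from 2 to 5 in the libraries labelled EM shuffle against no Abf1. Over all genes they ranged from 407 to 611 in no Abf1 against WT Abf1, from 23 to 46 for EM shuffle against WT Abf1, and from 264 to 701 for EM shuffle against no Abf1. Member flanks called in no Abf1 against WT Abf1 ranged from 5 to 8 and start windows from 0 to 1. Upstream windows ranged from 2 to 4 there and from 1 to 4 for EM shuffle against no Abf1.

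In the 3 h aliquots alone, 3 member promoters, 4 flanks and 0 start windows were called in no Abf1 against WT Abf1, and 2 promoters, 2 flanks and 1 upstream window for EM shuffle against no Abf1. Over all genes the promoter calls were 412 in no Abf1 against WT Abf1, 15 for EM shuffle against WT Abf1 and 285 for EM shuffle against no Abf1. In the 4 h aliquots alone, 4 promoters, 5 flanks and 1 upstream window were called in no Abf1 against WT Abf1 and 4 promoters for EM shuffle against no Abf1, and over all genes 315, 13 and 413 promoters in the order of the previous sentence. The 1 start window called after 4 h was that of ALA1 and not of GRS1. With limma on log2 odds, 3 member promoters were called in either comparison with no Abf1, and over all genes 443 in no Abf1 against WT Abf1 and 40 for EM shuffle against WT Abf1.

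Without the offset for genome averages, calls for EM shuffle against WT Abf1 were 542 over all genes, 3 member promoters, 1 flank and 1 upstream window. For EM shuffle against no Abf1 they were 2060 over all genes, with 13 upstream and 18 start windows of the members, and DED81 reversed to -0.048. In no Abf1 against WT Abf1, 5 flanks were then called. The cytosolic minus mitochondrial difference under the EM shuffle label was 5.87 percentage points uncorrected, 6.496 after 3 h and 7.02 after 4 h. In a window of 300 to 1 bp upstream it was 4.95 under the EM shuffle label, 2.28 in no Abf1 and 3.64 in WT Abf1. Without ALA1, GRS1, HTS1, VAS1 and GRS2 it was 10.1, 6.69 and 8.15 for the same constructs. Of 221 refits of called members, 159 kept the call, 61 lost it and 1 reversed.

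Replicate numbers do not pair the samples. With the replicate number as a block, 6 members were called in no Abf1 against WT Abf1, 0 for EM shuffle against WT Abf1 and 6 for EM shuffle against no Abf1 (638, 67 and 663 over all genes). SES1 was lost there (adjusted p = 0.0543), as were the flanks of TYS1 (0.0606) and GLN4 (0.0614) in no Abf1 against WT Abf1, and the upstream window of MSR1 was gained (-0.56, adjusted p = 0.0468).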
